A study of Mus musculus with 6 samples.

Results

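Calb1, Col11a1, Postn, Ifitm5, Acta1 and Palld are 6 of the 32285 genes counted in single cells from mouse jaw and thigh bone marrow. They stand for tooth, bone, connective tissue and muscle, leaving out the genes of the enamel matrix. They were picked by symbol with the difference between the sites already known from these libraries, so their levels and fold changes are given as a description, without a test. The counts are unique molecular identifiers (UMIs, each standing for 1 captured transcript) in 6 libraries of CD11b+ cells, 3 from femur and 3 from mandible, of C57Bl/6 mice aged 2 months, with no treatment named. Femur replicate 1 was female and the other 5 libraries were male. Femur marrow was flushed after the bone ends had been cut off (the sample labels add the tibiae, the study's methods name the femurs alone), and mandible marrow was flushed from the sockets of the pulled molars and from the jaw body once the incisor and condyle ends were off. Cells were then held on magnetic beads against CD11b, an integrin subunit of myeloid cells, and the number of mice in each library is not given in the sources used here.

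Calb1 encodes calbindin-D28k, a cytosolic calcium buffer that is abundant in ameloblasts, the epithelial cells that lay down enamel, and in kidney and some neurons. Col11a1 encodes a chain of type XI collagen, a minor fibrillar collagen that starts collagen fibrils in cartilage and is also made by osteoblasts, and Postn encodes periostin, a secreted matrix protein of the periosteum and the periodontal ligament that ties the tooth to its socket. Ifitm5 (Bril) encodes a small membrane protein of osteoblasts that is mutated in a brittle bone disease, Acta1 encodes the actin of skeletal muscle thin filaments, and Palld encodes palladin, a scaffold that bundles actin in fibroblasts, smooth muscle and many other cells. None of them is a classical marker of neutrophils or monocytes, which a CD11b selection is meant to hold.

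In the mm10 build, Calb1 lies on chromosome 4 at 15881264-15908064 (plus strand), Col11a1 on chromosome 3 at 114030540-114220718 (plus), Postn on chromosome 3 at 54361109-54391037 (plus), Ifitm5 on chromosome 7 at 140948958-140950291 (minus), Acta1 on chromosome 8 at 123891769-123894751 (minus) and Palld on chromosome 8 at 61511433-61902690 (minus). An antisense gene that was counted on its own, 4930512H18Rik, lies across Palld and held 15 to 86 UMIs in a library, so a part of the Palld reads may be uncertain. Gm45717 overlaps Ifitm5 and the processed pseudogene Gm18066 overlaps Palld, each on the same strand, and Gm20388 overlaps Acta1 on the opposite strand. They were not counted on their own, so a part of the Ifitm5, Palld and Acta1 counts may be uncertain too. RefSeq (GRCm38.p6) gave promoter windows for 5 of the 6 genes, all but Calb1. The 150 bases before the RefSeq start of a collagen, a matrix protein and a muscle gene are shown as examples. Capitals mark the TATA box (TATAAA), the CCAAT box on either strand, and the CArG box of muscle and actin genes.
Col11a1, chr3:114030390-114030539, plus strand: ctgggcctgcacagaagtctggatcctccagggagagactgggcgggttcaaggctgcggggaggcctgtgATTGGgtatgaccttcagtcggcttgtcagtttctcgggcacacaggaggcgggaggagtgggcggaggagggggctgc
Postn, chr3:54360957-54361106, plus strand: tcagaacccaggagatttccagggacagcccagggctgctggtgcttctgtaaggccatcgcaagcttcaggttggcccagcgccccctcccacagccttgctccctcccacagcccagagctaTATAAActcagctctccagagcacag
Acta1, chr8:123894776-123894925, minus strand: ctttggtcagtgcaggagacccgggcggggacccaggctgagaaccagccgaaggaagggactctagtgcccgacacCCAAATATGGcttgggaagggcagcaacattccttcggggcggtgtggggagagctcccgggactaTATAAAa
Over the 250 bases before 32851 RefSeq starts and on both strands, TATAAA was found in 12.4% of promoters, CCAAT in 33.8% and CArG in 1.47%. The Acta1 window held both a CArG box and TATAAA, the Postn window shown TATAAA and the Col11a1 window CCAAT, and the marked matches do not overlap. GGGCGG, which is not marked, was found in 32.7% of promoters and in both the Col11a1 and the Acta1 window. A second RefSeq start of Postn has a window, not shown, that held none of these motifs. These matches are letters in a window, and no binding was measured.

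The libraries held 74091 cell barcodes, of which 69776 were in the deposited cell table (7763 to 22797 cells and 82962160 to 244946998 UMIs a library) and 4315 were not. In femur replicate 1, 18.5% of the barcodes were outside the table, against 1.88% to 5.14% in the other 5. Any pair of libraries shared 15 to 73 barcodes, at most 0.668% of the smaller library, and no shared barcode was rich in a gene of the set in both. Clusters 0 to 4 were labelled neutrophils by the ImmGen reference in 95.2% to 100% of their cells, cluster 5 monocytes (50.8%) and neutrophils (34.4%), cluster 6 B cells (85.0%), cluster 7 neutrophils (96.0%) and the 274 cells of cluster 8 neutrophils (87.6%). Itgam, which encodes CD11b, was lowest in cluster 6 among the 9 clusters, at 197 UMIs per 1000000 UMIs.

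Calb1 was nearly absent from the femur and present in each mandible library. The kept cells held 3, 15 and 6 Calb1 UMIs in femur replicates 1 to 3 and 152, 91 and 123 in mandible replicates 1 to 3. Per 1000000 UMIs of the library (CPM) that was 0.0265, 0.139 and 0.0245 in the femur against 1.72, 1.05 and 1.48 in the mandible, so every mandible library lay above every femur library. The means were 0.0634 ± 0.0656 and 1.42 ± 0.343 CPM (SD, n = 3 each), and the fitted log2 difference, mandible over femur, was 4.56 (SE 0.62). Femur replicate 2 was the highest femur library, and leaving it out moved the difference to 5.63.

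Col11a1 and Postn, the matrix genes, were also higher in each mandible library. Col11a1 had 16, 17 and 20 UMIs in the femur libraries and 83, 74 and 155 in the mandible libraries, or 0.141, 0.158 and 0.0817 against 0.940, 0.850 and 1.87 CPM. Mandible replicate 3 was the highest, and the sites did not overlap. The fitted log2 difference of Col11a1 was 3.25 (SE 0.41). Postn had 2, 4 and 6 UMIs in the femur and 32, 37 and 59 in the mandible, or 0.0177, 0.0371 and 0.0245 against 0.363, 0.425 and 0.711 CPM. Its fitted log2 difference was 4.14 (SE 0.47), with mandible replicate 3 again the highest and no overlap between the sites.

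Ifitm5, the osteoblast gene, ran the other way. It had 151, 108 and 413 UMIs in the femur and 40, 105 and 75 in the mandible. On the CPM scale the femur libraries were at 1.33, 1.00 and 1.69 and the mandible libraries at 0.453, 1.21 and 0.904, so that mandible replicate 2 lay within the femur range. The fitted log2 difference was −0.72 (SE 0.41). It moved to −1.09 without mandible replicate 2, to −0.43 without mandible replicate 1 and to −0.39 without femur replicate 3.

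Acta1, the skeletal muscle actin, had 1, 1 and 8 UMIs in the femur and 32, 26 and 53 in the mandible. That was 0.00883, 0.00927 and 0.0327 CPM against 0.363, 0.299 and 0.639, with no overlap and a fitted log2 difference of 4.28 (SE 0.61). Of the 10 femur UMIs, 8 came from femur replicate 3, and without that library the difference was 5.44. Palld was the most evenly held of the set, at 311, 312 and 503 UMIs in the femur and 315, 339 and 321 in the mandible. Its CPM values were 2.75, 2.89 and 2.05 in the femur and 3.57, 3.90 and 3.87 in the mandible, a fitted log2 difference of 0.54 (SE 0.18). The sites did not overlap in kept cells, but over all barcodes of the matrices Palld was at 4.62, 3.99 and 2.25 CPM in the femur and 4.30, 4.27 and 4.30 in the mandible, and the sites overlapped.

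**Figure D1:**
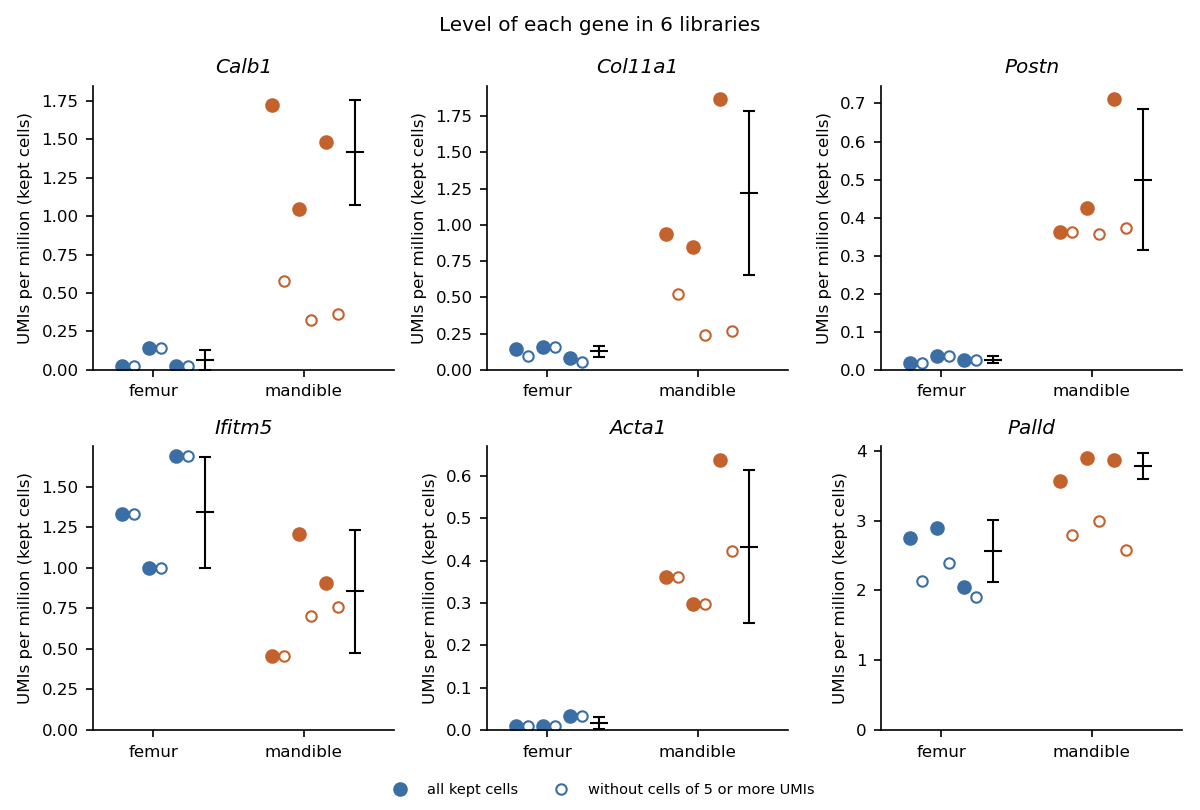
Level of each of the 6 genes in each library, in UMIs per 1000000 UMIs of the kept cells on a linear axis, with filled points for all kept cells, open points for the cells with fewer than 5 UMIs of the gene, and bars at the mean ± SD of the 3 filled points of a site. Calb1, Col11a1, Postn, Acta1 and Palld lay higher in all 3 mandible libraries, and for Ifitm5 mandible replicate 2 (1.21) lay within the femur range of 1.00 to 1.69.

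In all, 5 of the 6 genes were higher in every mandible library than in any femur library. Of the 16381 genes tested over all kept cells, 5.01% did the same and 7.73% were lower in every mandible library. The set was chosen on this contrast, so nothing is read from that count. Over the same genes the median fitted log2 difference was 0.01. The edgeR quasi-likelihood test called 0 genes (0%) at a Benjamini-Hochberg adjusted p of 0.05, with 1535 at an unadjusted p under that value, and DESeq2 called 311 of 17663 genes (1.76%). Without the female library, femur replicate 1, the log2 differences were 4.22 for Calb1, 3.31 for Col11a1, 3.94 for Postn, −0.77 for Ifitm5, 4.004 for Acta1 and 0.56 for Palld. Sex varied within the femur group alone, so its part in the levels was not tested.

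Few cells carried these counts. Calb1 was seen in 3, 15 and 6 femur cells, each with 1 UMI, and in 43, 25 and 31 mandible cells. The richest cell held 101 of the 152 Calb1 UMIs of mandible replicate 1, 36 of 91 in replicate 2 and 45 of 123 in replicate 3. Over the mandible, 10 cells with 5 or more Calb1 UMIs held 257 of 366, or 70.2%. The other 89 positive mandible cells therefore carried the remaining 109 UMIs.

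Col11a1 was as concentrated. It was found in 10, 16 and 12 femur cells and 41, 19 and 24 mandible cells, and the richest mandible cells held 37, 33 and 84 UMIs. The 8 mandible cells with 5 or more held 223 of 312 Col11a1 UMIs (71.5%). In the femur no kept cell held more than 7.

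Postn, Acta1 and Ifitm5 were spread more thinly. Postn was found in 30, 27 and 27 mandible cells, of which 89.3% held 1 UMI, although 1 cell of mandible replicate 3 held 28 of that library's 59. Acta1 was found in 27, 25 and 30 mandible cells, and 1 cell of mandible replicate 3 held 18 of that library's 53 UMIs. The Postn cells numbered 2, 4 and 6 and the Acta1 cells 1, 1 and 8 in the femur libraries, all with 1 UMI.

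Ifitm5 was found in 141, 97 and 382 femur cells with at most 3 UMIs each, and in 34, 61 and 59 mandible cells. In mandible replicate 2 a single cell held 39 of its 105 Ifitm5 UMIs, and 4 mandible cells with 5 or more held 25.5% of the site's total. Without those cells the log2 difference was −1.15. Palld was found in 204, 228 and 396 femur cells and 207, 214 and 182 mandible cells, and its richest kept cell of 28 UMIs held 1.33% of all its UMIs.

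**Figure D2:**
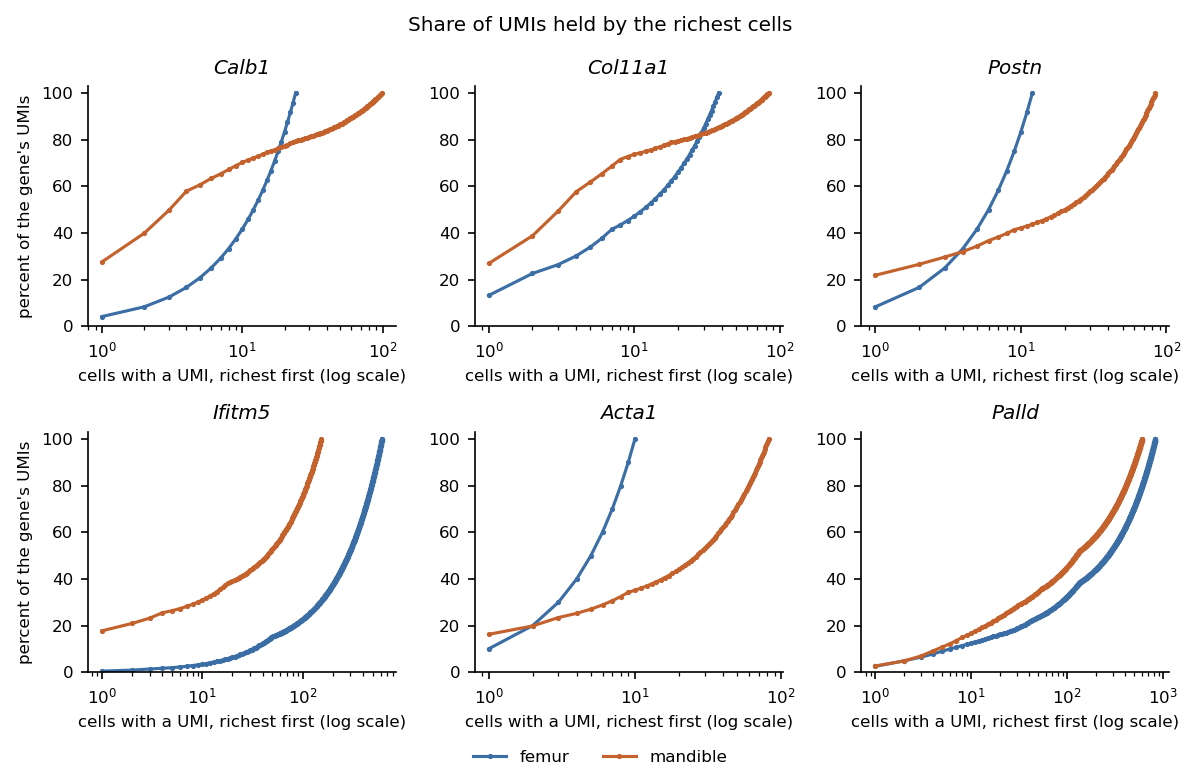
Cumulative percent of the UMIs of each gene (vertical axis) against the number of positive kept cells counted from the richest down (log axis), for the cells of each site pooled over its 3 libraries. The first 10 mandible cells held 70.2% of Calb1 and the first 8 held 71.5% of Col11a1, whereas the curves of Ifitm5 in the femur and of Palld at both sites climbed slowly.

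The site differences were recomputed without cells that held 5 or more UMIs of the gene in question, an alternative added after the values had been seen. The log2 difference went from 4.56 to 2.81 for Calb1 and from 3.25 to 1.78 for Col11a1. It was 3.69 for Postn and 4.03 for Acta1, close to the values with all cells, and 0.35 for Palld. The low-count cells of these 5 genes thus gave a difference in the same direction. Counting positive cells in place of UMIs gave log2 differences of 2.69 for Calb1, 1.81 for Col11a1, 3.54 for Postn and 0.31 for Palld.

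**Figure D3:**
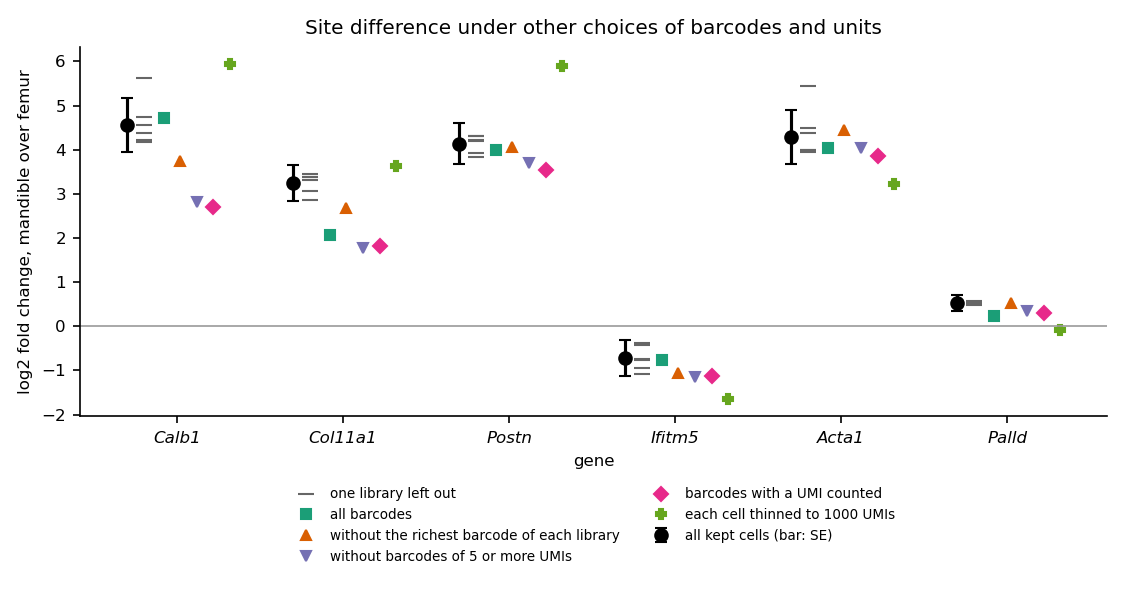
Log2 difference, mandible over femur, of each gene with all kept cells (black, bar: SE) and under other choices of barcodes and units, 1 mark for each. Over 15 settings, some of them not drawn, Calb1 ran from 2.69 to 5.95, Col11a1 from 1.78 to 3.64, Postn from 3.54 to 5.90, Ifitm5 from −1.66 to −0.39, Acta1 from 3.22 to 5.44 and Palld from −0.08 to 0.59, and the 5.90 of Postn is a fitted value against a femur with no UMI.

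The barcodes with 5 or more UMIs of a gene, kept or not, differed in what else they held. Of the 12 mandible barcodes rich in Calb1, 9 held UMIs of Amelx, the main enamel matrix protein, and 8 held UMIs of Krt14, a keratin of basal and dental epithelium. None of the 12 held Col1a1, the chief collagen of bone. The kept cell with 101 Calb1 UMIs (mandible replicate 1, cluster 5, 3370 UMIs) held 478 Amelx, 138 Ambn and 50 Enam UMIs, all of enamel matrix genes. The cell with 45 (mandible replicate 3, 43249 UMIs) held 14251 Amelx UMIs, and the cell with 36 (mandible replicate 2, 1625 UMIs) held 13. Another 4 kept cells rich in Calb1 lay outside cluster 5, with 5 to 10 Calb1 UMIs beside 51 to 3876 UMIs of the neutrophil gene S100a8.

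In the mandible, the barcodes rich in Col11a1, Ifitm5 or Postn held bone genes, with few enamel genes. All 9 mandible barcodes rich in Col11a1 held Col1a1, 7 held the osteoblast gene Bglap (osteocalcin), 1 held Amelx, 3 held Ambn (1 UMI each) and none held Krt14 or Calb1. The cell with 84 Col11a1 UMIs (mandible replicate 3, 24443 UMIs) held 2626 Col1a1, 2208 Bglap and 7 Ifitm5 UMIs. The cell with 39 Ifitm5 UMIs (mandible replicate 2, 19736 UMIs) held 33 Col11a1, 2565 Bglap and 1669 Col1a1 UMIs, and all 4 mandible cells rich in Ifitm5 held Col11a1, Bglap and Col1a1. The cell with 28 Postn UMIs (mandible replicate 3, 21210 UMIs) held 3848 UMIs of Spp1 (osteopontin), 341 of Ibsp (bone sialoprotein), 13 of Col11a1 and 5 of Ifitm5. Of the 6 femur barcodes rich in Col11a1, the richest (femur replicate 3, outside the kept cells) held 31 Col11a1, 1182 Col1a1, 30 Bglap, 599 Spp1 and 7 Ifitm5 UMIs, and the other 5 held no Col1a1 UMI. Of those 5, 2 were kept cells of cluster 4 with 6106 and 3598 S100a8 UMIs, and 3 were outside the kept cells and held 444 to 889 Cxcl12, 47 to 71 Col1a2 and 224 to 309 Ibsp UMIs.

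Acta1 was seen beside muscle genes. Both barcodes rich in Acta1, with 18 and 6 UMIs, held Ckm (muscle creatine kinase) and Mylpf (a fast muscle myosin light chain) and no Col1a1, Amelx or Calb1. The cell with 18 lay in cluster 0 and also held 3970 S100a8 UMIs among 30499. The other, with 850 UMIs, was outside the kept cells. Palld was found beside both kinds, in 6 of the 9 mandible barcodes rich in Col11a1, both rich in Postn and 3 of the 12 rich in Calb1. It was itself rich in 24 femur and 33 mandible barcodes. The 3 richest, with 118, 70 and 38 UMIs, were outside the kept cells and held 1019, 889 and 457 UMIs of Cxcl12, a chemokine of marrow reticular stroma. The barcode with 38 is 1 of the 9 mandible barcodes rich in Col11a1.

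**Figure D4:**
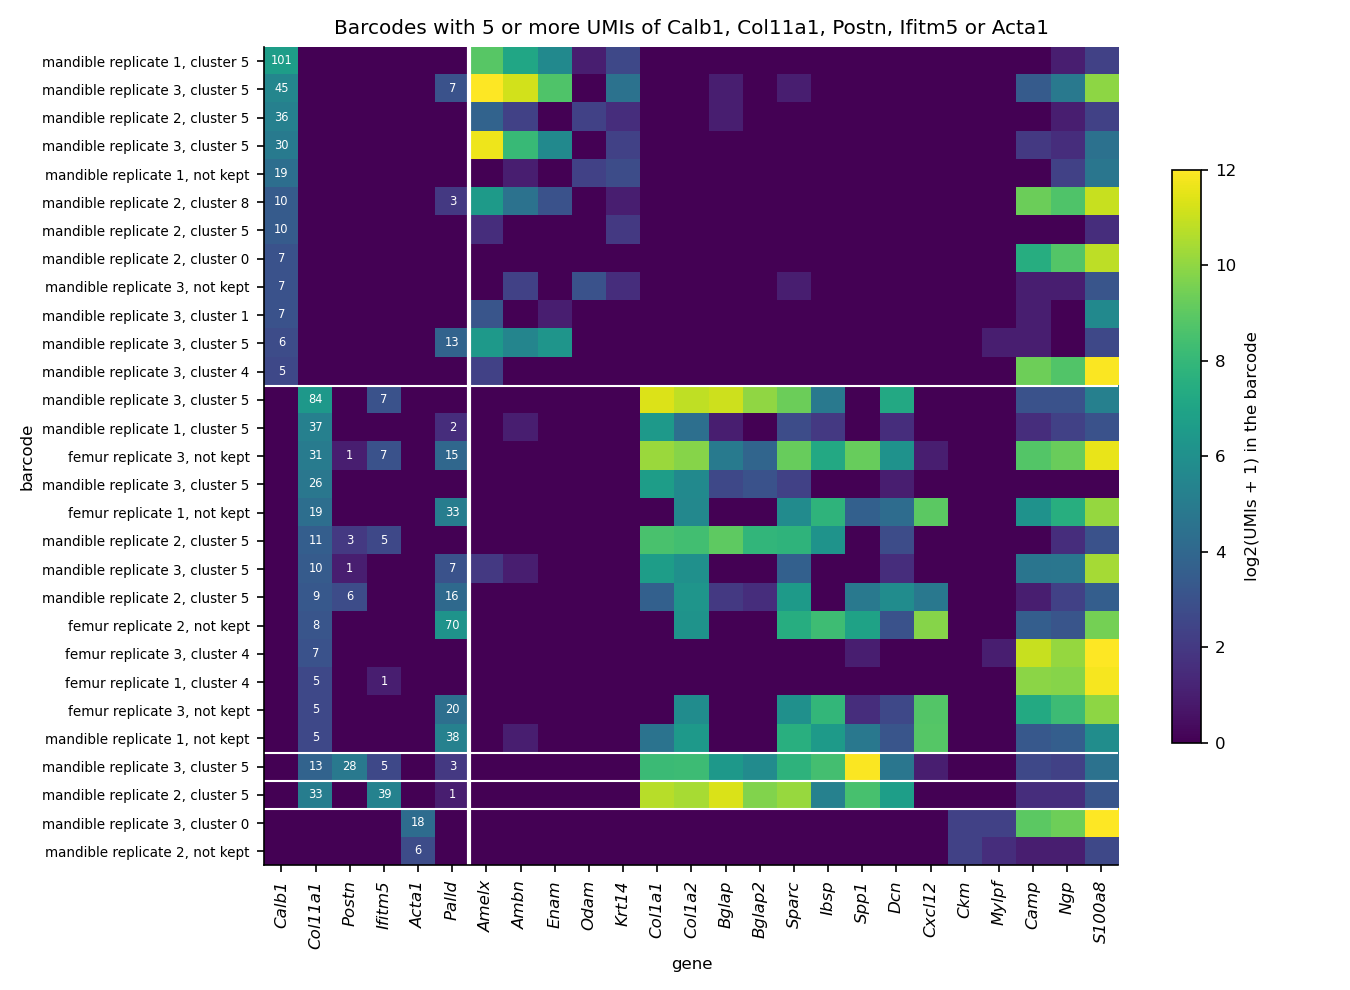
UMIs of the 6 genes (left, with their counts) and of marker genes (right) in each barcode with 5 or more UMIs of Calb1, Col11a1, Postn, Ifitm5 or Acta1, 1 barcode a row, grouped by the gene with the most UMIs and shaded by log2(UMIs + 1) up to 12. Calb1 sat beside Amelx, Ambn and Krt14, and in the mandible Col11a1, Ifitm5 and Postn sat beside Col1a1, Bglap and Sparc.

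Among all positive mandible cells the genes were less cleanly parted. Amelx was found in 52 of the 99 Calb1-positive cells (52.5%), against 6.91% of the other mandible cells. Col1a1 was found in 33 of 84 Col11a1-positive cells (39.3%) and 37 of 84 Postn-positive cells (44.0%), against 4.90% and 4.88% of the others, and Ckm in 6 of 82 Acta1-positive cells (7.32%) against 0.212%. Amelx was also found in 28.6% of the Col11a1-positive and 22.6% of the Postn-positive cells, against 7.02% and 7.04% of the others, and Col1a1 in 11.1% of the Calb1-positive cells against 4.99%. These shares are descriptive, since cells of a library share its depth and its free RNA. For Ifitm5 the share of positive cells with Col1a1 was 9.09% in the mandible (14 of 154) against 4.99% of the other cells, and 2.42% in the femur against 2.18%.

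Cells with more than 1 gene of the set were uncommon. They numbered 25 of the 1507 positive femur cells and 68 of the 1023 positive mandible cells. In the mandible, 12 cells held both Col11a1 and Postn, 27 both Postn and Palld, 17 both Col11a1 and Palld, and 6 both Col11a1 and Ifitm5. No mandible cell held Calb1 with Ifitm5 or Col11a1 with Acta1, and 1 held Calb1 with Col11a1.

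Cluster 5, the monocyte cluster, held 13.6% of the mandible cells and 68.0% of their Calb1 UMIs. Its share was 78.5% for Col11a1, 49.2% for Postn, 50.5% for Ifitm5, 39.2% for Palld and 18.9% for Acta1. Calb1 in cluster 5 was at 0, 0.122 and 0.0497 CPM in the femur libraries and 9.67, 3.67 and 5.44 in the mandible libraries. Col11a1 was at 0.663, 0.305 and 0.0994 against 4.34, 3.74 and 8.81. Calb1, Col11a1, Postn and Acta1 were higher there in every mandible library, where 5.09% of the 13765 genes tested in the cluster were. Postn and Acta1 did not pass the filter on low counts there and are not among those genes. Calb1 passed it through the mandible libraries alone and so had to be higher there. For Col11a1 the femur libraries did not meet the filter by themselves, so nothing is read from this count. Of the 3934 femur cells of cluster 5, 0 held a UMI of Postn or Acta1, so the positive share could still be up to 0.0763%.

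The cells that the references labelled with a type outside the blood, such as fibroblasts, were nearly all in cluster 5. There were 27 in the femur and 33 in the mandible, and the 33 held 69.2% of the Col11a1, 36.7% of the Postn, 25.5% of the Ifitm5, 19.7% of the Calb1 and none of the Acta1 UMIs of that site. The mandible cells with 101 and 45 Calb1 UMIs, which held 478 and 14251 Amelx UMIs, are not among the 33. ImmGen labelled them macrophages and neutrophils. The 27 femur cells held none of the Calb1, Postn, Ifitm5 or Acta1 UMIs, but 7 of the 53 Col11a1 UMIs (13.2%) and 101 of the 1126 Palld UMIs (8.97%), where the 33 mandible cells held 156 of 975 Palld UMIs. Cells with 5 or more UMIs made up most of the cluster 5 counts of Calb1 and Col11a1 in the mandible. Without them cluster 5 of the mandible was at 0.500 CPM for Calb1 and 0.525 for Col11a1, against 5.92 and 5.83 with them. Postn went from 63 to 29 UMIs without such cells, and the 21 Acta1 UMIs of the cluster were all in cells with fewer.

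Cluster 7, a neutrophil-labelled cluster of 890 cells, was the other place where 4 of the 6 genes were high. Postn had 10, 2 and 9 UMIs among its mandible cells and none among its 591 femur cells. Col11a1 had 12, 4 and 2 UMIs in the mandible and none in the femur. Palld was at 3.50, 7.78 and 7.58 CPM in the femur and 69.1, 25.4 and 23.5 in the mandible, and in mandible replicate 1 it came as 67 UMIs in 10 cells with up to 21 in a cell. Calb1, Col11a1, Postn and Palld were higher in all mandible libraries of cluster 7, where 5.10% of the 5939 genes tested were. Of the 4, only Palld passed the filter on low counts there and is among those genes. Palld passed it through the mandible libraries alone and so had to be higher there, and nothing is read from its place among them. The median mitochondrial share was 5.84% to 7.74% of UMIs in the libraries of cluster 7, at both sites, against at most 3.80% in any other cluster, and its part in these values was not tested. Ifitm5 had 2, 2 and 10 UMIs in its femur and 1, 1 and 0 in its mandible libraries, and Acta1 had 2 UMIs, both in mandible replicate 3. Without cells of 5 or more UMIs, the mandible stood at 3.39 CPM for Calb1, 7.62 for Col11a1, 8.89 for Postn and 21.0 for Palld, each above its level in any other mandible cluster counted alike. Col1a1 and Amelx were also high in cluster 7, at 69.3 and 82.0 CPM over all libraries, and their part in these values was not tested.

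**Figure D5:**
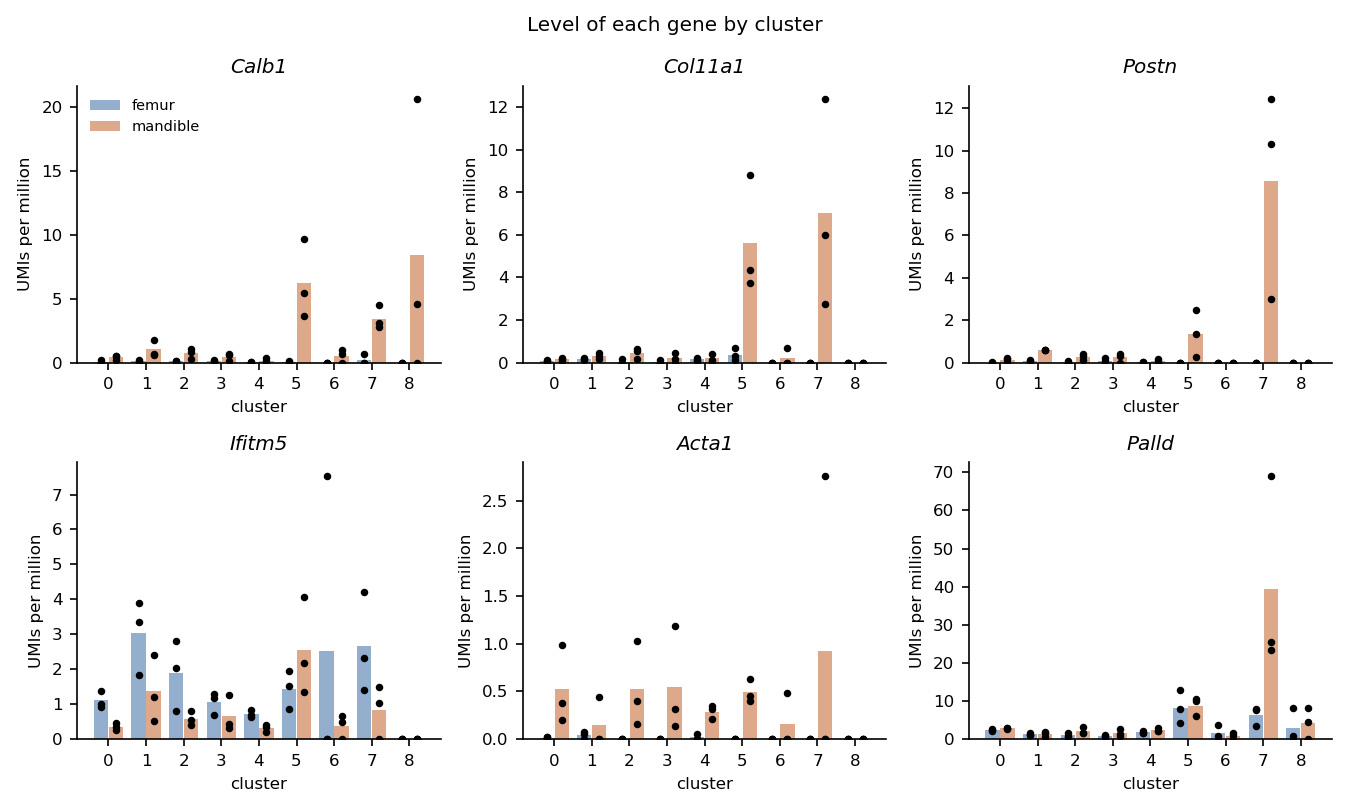
Level of each gene in clusters 0 to 8, in UMIs per 1000000 UMIs of the cluster's cells, with bars at the mean of 3 libraries for femur (blue) and mandible (orange) and a point for each library. Calb1 and Col11a1 were high in the mandible in cluster 5 (means 6.26 and 5.63) and Col11a1, Postn and Palld in cluster 7 (7.04, 8.58 and 39.4), and the bar of Calb1 in cluster 8 (8.41) rests on 11 UMIs in 2 cells.

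Ifitm5 was lower in every mandible library in clusters 0 and 4, and in cluster 2 on the CPM scale but not after TMM scaling, edgeR's adjustment of library sizes. In cluster 0 it was at 0.925, 1.02 and 1.39 CPM in the femur and 0.264, 0.458 and 0.343 in the mandible, a log2 difference of −1.63 (SE 0.38). In cluster 4 the log2 difference was −1.14 (SE 0.40), again without overlap. In cluster 2, where Ifitm5 did not pass the filter on low counts, the log2 difference was −1.77 (SE 0.52), with the lowest femur library at 0.812 CPM and the highest mandible library at 0.791. In clusters 1, 3 and 7 they overlapped, with mandible replicate 3 at 2.40 CPM in cluster 1 against 1.82 in femur replicate 2, and mandible replicate 2 at 1.25 in cluster 3 against 0.680. Of all genes tested, 6.95% in cluster 0 and 9.76% in cluster 4 were lower in every mandible library. In cluster 5 Ifitm5 ran from 0.856 to 1.94 CPM in the femur and from 1.36 to 4.08 in the mandible, and the sites overlapped. Without cells of 5 or more Ifitm5 UMIs, mandible replicate 2 was at 1.14 CPM there. The levels pooled over libraries were then 1.31 CPM in the mandible and 1.47 in the femur.

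Acta1 was spread over clusters 0 to 5. Its mandible UMIs were 39 in cluster 0, 17 in cluster 4 and 21 in cluster 5, or 35.1%, 15.3% and 18.9% of Acta1 where these clusters held 30.9%, 22.2% and 16.3% of all UMIs. Without the cell of 18 Acta1 UMIs, cluster 0 held 21 of 93. Cluster 1 held 5, all in mandible replicate 1, or 4.50% of Acta1 against 9.58% of all UMIs. In cluster 0 it was at 0.0243, 0 and 0.0218 CPM in the femur and 0.198, 0.381 and 0.986 in the mandible, with 18 of the 23 UMIs of mandible replicate 3 in 1 cell.

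Cluster 6, whose B cells should lack these genes, served as the background. Among its 257 femur cells (median 5111 UMIs), 0 held Calb1, Col11a1, Postn or Acta1, which allows a share of up to 1.17%, and 2 each held Ifitm5 and Palld. Among its 752 mandible cells (median 3905.5 UMIs), 3 held Calb1, 1 Col11a1, 0 Postn, 2 Ifitm5, 1 Acta1 and 3 Palld. The Calb1 share was 0.399% (95% exact binomial interval 0.0824 to 1.16%), against 0.673% (0.427 to 1.01%) in cluster 5 of the mandible, where the median was 9928.5 UMIs, and 0.371% (0.240 to 0.547%) in cluster 0. In the mandible the intervals of Calb1 and Acta1 overlapped that of cluster 6 in every other cluster, and the shares themselves were not tested against each other. The highest Calb1 share among clusters 0 to 7 was that of cluster 7, at 2.34% (0.946 to 4.76%). Col11a1 stood above cluster 6 in cluster 7 alone, at 4.68% (2.58 to 7.73%), with 10, 2 and 2 positive cells in mandible replicates 1 to 3. Most of that share thus came from mandible replicate 1. Postn stood above cluster 6 in cluster 7, at 5.35% (3.09 to 8.55%), against the 0.399% that 0 of 752 allows. In cluster 5 Postn was at 0.702% (0.450 to 1.04%), above that limit. This interval overlapped the exact binomial interval of 0 of 752, which reaches 0.489%. Ifitm5 stood above it in cluster 5 alone, at 1.49% (1.11 to 1.96%), and Palld in clusters 0, 4, 5 and 7, with 10.7% (7.44 to 14.8%) in the last. The clusters differ in depth (median 20644 UMIs in cluster 4), and these intervals cover counting error over cells pooled from 3 libraries. At 1000 UMIs a cell, cluster 6 of the mandible had 0 positive cells of 751 for each gene. The mandible shares were then 0.0880% for Ifitm5 and 0.147% for Postn in cluster 5, and 0 for Col11a1 and 0.673% for Postn in cluster 7. Those of Palld were 0.282%, 0.0774%, 1.06% and 1.68% in clusters 0, 4, 5 and 7. The Ifitm5 and Col11a1 shares, the Postn share of cluster 5 and the Palld shares of clusters 0 and 4 lie under the limit that 0 of 751 allows. A difference from cluster 6 was not detectable there at this depth, and the Postn share of cluster 7 rests on 2 cells.

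Each cell was also thinned to 1000 UMIs, which left out 66 shallower femur and 22 shallower mandible cells. Calb1 was then found in 0, 1 and 1 femur cells and 8, 5 and 9 mandible cells. Postn was found in no femur cell and in 2, 6 and 6 mandible cells, and Acta1 in 0, 0 and 1 against 2, 2 and 4. Palld was found in 36, 44 and 41 femur and 27, 26 and 23 mandible cells, and its log2 difference at this depth was −0.08. Most of these counts were too small to order the libraries.

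The barcodes outside the kept cells held a further share of each gene. They carried 59.2% of all femur UMIs of Col11a1 (30, 10 and 37 in the 3 libraries) and 27.7% of those of Palld. Most of these sat in the 209 femur barcodes with 6000 or more genes, which held 73 Col11a1 and 393 Palld UMIs. With all barcodes the log2 difference of Col11a1 was 2.07 in place of 3.25, and that of Palld 0.24 in place of 0.54. Calb1 had no UMI in the femur barcodes outside the kept cells, but 30, 7 and 16 in the mandible ones, of which 28 lay in 49 barcodes with a mitochondrial share over 20%.

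The wider connective, bone and tooth genes were followed in 10 lists of 128 genes that leave out the 6, chosen with earlier results of these data in view. Over all kept cells edgeR called 0 of the 84 tested at an adjusted p of 0.05, with 28 at an unadjusted p under that value, and DESeq2 called 19 of 94, against 1.76% of all genes it tested. The 19 include Amelx, Ambn, Amtn, Enam, Odam and Krt14, which held 0 to 9 UMIs a femur library. The lists were also chosen with these data known, so nothing is read from that count. A gene that passed the filter on low counts through the mandible libraries alone had to be higher there, so the lists are counted here over the genes whose femur libraries met the filter by themselves. Of 12 such bone genes, 3 (Bglap, Col1a1 and Col1a2) were higher in every mandible library (median log2 difference 0.52). So were 4 of 13 fibroblast and periodontal ligament genes (Col12a1, Dcn, Fn1 and Vcan, with a median of 1.02 over the 13). The same held for 1 of 2 dentin genes (Smpd3) and 1 of 4 dental epithelium genes (Sfn). The cartilage (6 genes, −0.41), smooth muscle (6, −0.20), endothelium (6, 0.25), marrow stroma (7, −0.37) and skeletal muscle (5, −0.0043) lists had none. The share was 5.01% over all genes tested, which were not held to this limit on the femur libraries. Of the enamel list 1 gene remained, Wdr72, which was not higher in every mandible library (log2 difference −0.63). Wdr72 was at 0.786, 3.764 and 0.2572 CPM in the femur and 2.425, 0.3103 and 0.1929 in the mandible. Amelx, which this limit leaves out, held 3 to 9 UMIs a femur library and 1256 to 19156 a mandible library.

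The summed level of the enamel list was 0.918, 3.97 and 0.372 CPM in the femur and 45.8, 18.4 and 274 in the mandible. That of the bone list was 137, 168 and 83.5 against 142, 211 and 302, and that of the skeletal muscle list 7.26, 12.8 and 9.79 against 10.8, 9.10 and 10.5, so the sites overlapped for both. Single kept cells of mandible replicate 3 held 17088 and 3598 UMIs of the enamel list, and others held 7913 and 5086 of the bone list. Amelx, of the enamel list, had 19156 UMIs in that library. In mandible replicate 2, 1 kept cell held 7018 UMIs of the bone list. The enamel and bone sums thus rest in part on a few cells. Runx2, Fn1, Sfn, Acta2 and Tnni2, the most counted genes of 5 lists, held 231 to 15845 UMIs in every library of both sites, so the list sums are not those of tissue cells alone. Within clusters, edgeR called Col1a1 higher in the mandible in cluster 1 (log2 difference 1.88, adjusted p = 0.0488), cluster 2 (2.02, adjusted p = 0.0388) and cluster 7 (4.25, adjusted p = 0.0157), each with all 3 mandible libraries above all 3 femur ones. It also called Col1a2 (4.35, adjusted p = 0.0299) and Col3a1 (4.81, adjusted p = 0.0082) in cluster 7, both fibrillar collagen chains. Col3a1 held 12, 25 and 24 UMIs in the femur libraries over all kept cells. Whether the femur libraries of cluster 7 met the filter by themselves was not checked for these 3 collagen genes. Nothing is read from the direction of their calls in cluster 7. The Col1a1 calls of clusters 1 and 2 were lost with any 1 of the 6 libraries left out and with the replicate number as a block. In cluster 7 Col1a1 was lost without femur replicate 3, Col1a2 and Col3a1 were lost without femur replicate 2, femur replicate 3 or mandible replicate 3, and Col3a1 also without mandible replicate 1. Amelx was called in clusters 0 to 4 and 7 and Ambn in clusters 0, 1 and 7, and the Amelx calls of clusters 0, 3, 4 and 7 held with each library left out in turn. Amelx held 3 to 9 UMIs and Ambn 0 to 3 in a femur library over all kept cells. Both thus passed the filter on low counts in these clusters through the mandible alone and had to be higher there. Nothing is read from the direction of these calls. Amelx was lost in cluster 1 without any 1 femur library or mandible replicate 3, and in cluster 2 without femur replicate 1 or 2. Ambn was lost in cluster 0 without any 1 femur library, without mandible replicate 3 and with the replicate block, in cluster 1 with any 1 library left out and with the block, and in cluster 7 without femur replicate 3. In these clusters the share of all genes called was 0.0163%, 0.0842%, 0.0416%, 0.0108%, 0.0245% and 0.0842%.

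Among close relatives, Pvalb, Col2a1, Col5a3 and Ifitm7 were also higher in every mandible library, Ifitm1 was lower in every one, and the others overlapped, where 5.01% of all genes tested were higher and 7.73% lower in this way. Ifitm7 rests on 4, 3 and 4 UMIs against 5, 7 and 9, and Pvalb on 0, 0 and 1 against 3, 5 and 6. Pvalb, Col2a1 and Ifitm7 did not pass the filter on low counts and are not among the genes tested. The relatives were compared on the CPM scale without TMM scaling, which the shares of all genes include. For Calb1, the other EF-hand buffers were listed at 0 (Calb2) or held 4 to 19 (S100g) and 0 to 6 (Pvalb) UMIs a library. Col11a2, the partner chain of type XI collagen, held 196, 277 and 426 UMIs in the femur and 183, 197 and 210 in the mandible, and the cartilage collagen Col2a1 3, 0 and 2 against 5, 24 and 35. Tgfbi, the relative of periostin, held 10169 to 31536 UMIs a library, or 129 to 190 CPM in the femur and 117 to 143 in the mandible. Ifitm6 of the same family as Ifitm5 was at 1012 to 1906 CPM in the femur and 1432 to 1896 in the mandible. Actc1, the heart actin, held 1 UMI in all, while Acta2, the smooth muscle actin, held 2359 to 6720 a library. Of the relatives of Palld, Mypn held 5 to 36 and Myot 1 in all.

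Over the 36 sums of 6 libraries by clusters 0 to 5, the genes closest to each member were found by the Pearson correlation of log2(CPM + 1) among 15581 genes. The sums share libraries and clusters, so no p is given. For Postn they were Bglap (0.902), Bglap2 (0.878) and Col1a1 (0.855), all bone genes. For Acta1 they were Amelx (0.726), Entr1 (0.705) and Ambn (0.638), for Col11a1 Plod2 (0.929), Fcrls (0.928) and Mpped2 (0.916), and for Calb1 Retnla (0.884), Col11a1 (0.877) and Tpm2 (0.868). Those of Ifitm5 were Cd244a (0.809), Snap29 (0.808) and Spryd3 (0.803), and those of Palld were 1110051M20Rik (0.933), Acads (0.924) and Zc2hc1a (0.922). Calb1 and Col11a1 were thus close over these sums although a single mandible cell held both. The mandible sums of cluster 5 were the highest for each, at 3.67 to 9.67 CPM for Calb1 and 3.74 to 8.81 for Col11a1. The next highest sums were 1.8 for Calb1 and 0.663 for Col11a1, and the correlation without cluster 5 was not computed.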

How the data were processed

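Raw UMI counts of 32285 genes in 6 libraries were used as the authors deposited them. Per the labels and the study's methods, the authors made them with Cell Ranger 7.0.1 on mm10 (the matrix headers give 7.1.0), kept barcodes in which 600 to 6000 genes were detected and mitochondrial reads made up no more than 20%, and clustered cells in Seurat after integration. Cells, clusters and SingleR labels were taken from the deposited cell table. The mitochondrial percent of a barcode was computed from its UMIs of mitochondrial genes. No doublet caller was run. Doublets were not stated to have been removed. A deposited marker table of the authors' own comparisons was not used, and 0 columns belonged to another series.

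Counts were summed per library, and per library and cluster where each library held 10 or more cells, since cells are not replicates. The sums were fitted with edgeR 4.0.16 (TMM, default expression filter, quasi-likelihood test, Benjamini-Hochberg adjustment at 0.05 over all genes tested) in R 4.3.3, with DESeq2 1.42.0 as an alternative. Fold changes of genes that the filter dropped came from the fit without it. The scripts were tested on simulated data. The study had compared sites with cells as replicates, so library sums replaced that test. The labels do not say that libraries came from separate animals, and p-values measure the spread between these libraries, which may be technical.

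The 6 genes and all lists were chosen with earlier results of these data known. Other genes named are every list gene that passed the test, the 3 most counted genes of lists, the 3 genes most correlated with each member, list genes held by barcodes with 5 or more UMIs of a member, and close relatives. Intervals at 95% (exact binomial) and the floor of 3 counts cover counting error only.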

Additional observations from a re-analysis of the deposited data

Results flagged for a closer look

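Some counts lay in barcodes that the main comparison did not use and exceeded the matching femur barcodes. The mandible barcodes outside the kept cells held 53 Calb1 UMIs, where the femur ones held 0. They held 21 Postn UMIs against 3 in the femur and 16 Acta1 UMIs against 3. There were 1123 such barcodes in the mandible and 3192 in the femur. Of the 53 Calb1 UMIs, 19 lay in 1 barcode of mandible replicate 1 with 80.2% mitochondrial UMIs, and of the 16 Acta1 UMIs, 6 lay in 1 barcode of mandible replicate 2. No test was made of these counts.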

How the results depend on the processing

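No site difference of a gene changed sign under any setting but that of Palld, which went from 0.54 to −0.0772 (log2) with each cell thinned to 1000 UMIs. Thinning also moved Calb1 from 4.56 to 5.95, Postn from 4.14 to 5.90, Ifitm5 from −0.72 to −1.66 and Acta1 from 4.28 to 3.22, with the femur value of Postn at 0 UMIs, so that its 5.90 is no bound. Counting positive barcodes gave 2.69 for Calb1, 1.81 for Col11a1, 3.54 for Postn and 0.31 for Palld. All barcodes of the matrices gave 2.07 for Col11a1 and 0.24 for Palld, and put 17.9% of Col11a1 and 4.31% (4.305) of Palld in the richest barcode. Without the richest barcode of each library Col11a1 was at 2.68, and without barcodes of 5 or more UMIs Calb1 was at 2.81, Col11a1 at 1.78 and Palld at 0.35. In the 4 libraries that share a library number (6 or 7), with that number as a block, Postn was at 3.66. The cause of these moves was not tested.

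With single libraries left out, the log2 differences ran from 4.17 to 5.63 (Calb1), 2.85 to 3.44 (Col11a1), 3.84 to 4.31 (Postn), −1.09 to −0.39 (Ifitm5), 3.95 to 5.44 (Acta1) and 0.49 to 0.57 (Palld). The percent held by the richest cell, 25.9, 23.0, 20, 4.37, 14.9 and 1.33 in the same order, ran from 18.9 to 37.8, 17.6 to 29.8, 7.41 to 27.2, 0.889 to 8.14, 5.88 to 20.2 and 1.51 to 1.75. It was 7.41 for Postn and 5.88 for Acta1 without mandible replicate 3, and 0.889 for Ifitm5 without mandible replicate 2.

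Over all kept cells edgeR called 0 genes, against 311 by DESeq2, 36 without the filter on low counts, 18 in the 4 libraries that share a library number, with that number as a block, and 0 to 37 with a library left out (37 without mandible replicate 1). The setting with 4 libraries changes both the block and the samples. Summed over clusters the count was 24, against 761, 1907, 4563 and 6 to 127 (127 without mandible replicate 1). List genes called numbered 0 over all kept cells, against 19, 11, 7 and 0 to 9, and 14 over clusters, against 46, 52, 46 and 5 to 17. The replicate numbers of the labels did not pair the libraries (correlations of −0.009, −0.153 and 0.0423, against 0.154 and 0.167 for the library numbers 6 and 7), and a replicate block gave 0 genes and 0 list genes over all kept cells and 24 and 12 over clusters.

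Counts of a few UMIs a library limit Postn and Acta1 in the femur and, apart from Palld in cluster 7, the 6 genes in most libraries of clusters 6 to 8.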
